A study of Mus musculus with 14 samples.

Results

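The ATP-binding cassette (ABC) transporters were followed in derivatives of MIN6, insulin-secreting beta cells of mouse pancreas, in which Sirt1 had been overexpressed or knocked down. Members were the array probes whose single platform symbol, updated through its Entrez identifier, fell in subfamilies Abca to Abcg. Abcc8 and Abcc9, the sulfonylurea receptor subunits of ATP-sensitive potassium channels, were left out of the set. The rule used names alone and no measured value. It found 35 genes of the 15099 with a singly named probe, on 36 of 23232 probes, with 2 probes for Abca3 and 1 for each other gene. All 36 were tested. The gene table holds 48 protein-coding genes of these subfamilies. The 13 of them without a singly named probe were not analysed here.

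ABC transporters are membrane proteins that bind and hydrolyse ATP to move a substrate across a membrane, in most mammalian members outward from the cytosol or into an organelle. Their substrates include cholesterol and phospholipids, bile salts, drugs and their glutathione or glucuronide conjugates, peptides and fatty acyl chains. In beta cells, Abca1 and Abcg1 are known for removing cholesterol, whose build-up impairs insulin secretion. Sirt1 is an NAD-dependent protein deacetylase, and one of its known targets is LXR, the oxysterol-sensing nuclear receptor that induces Abca1 and Abcg1.

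The 4 stable lines were compared with their controls on two-colour arrays, each array carrying RNA of 1 modified line in one channel and its control RNA in the other. Sir2OE1 (3 arrays) and Sir2OE2 (4 arrays) arose from infection with an ecotropic pBabe retrovirus that carries mouse Sirt1 and a neomycin resistance gene. Both were set against a pool of Neo1 and Neo2, lines made with the pBabe-neo virus, and these cells were selected in 280 µg/ml G418. Sir2KD1 (3 arrays) and Sir2KD2 (4 arrays) arose from co-transfection of mU6pro vectors for a pair of different Sirt1 siRNAs with a neomycin marker plasmid. Both were set against mU6pro, a line made with the empty vector, and these cells were selected in 400 µg/ml G418. All lines came from MIN6 at passage 24 and were kept in 5 mM glucose for 4 days before RNA was taken. Each line is a single established population, so what separates it from its control includes its own selection history.

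The deposited values were log2 ratios centred per probe within each kind of line. The sum was 0 over 6 of the 7 arrays of a kind, of which 3 had the line in channel 2 and 3 had it in channel 1. No source used here gives the direction of the ratio. They were read as channel 2 over channel 1, with the sign turned on arrays with the line in channel 1. That turn is an assumption, and the overall sign is not settled either. The text therefore speaks of a plus side and a minus side of the turned log2 ratio and not of more or less RNA. The Sirt1 probe was not called in any line, with log2 ratios of 0.08 ± 0.12 (SE) in Sir2OE1, -0.33 ± 0.10 in Sir2OE2, -0.10 ± 0.12 in Sir2KD1 and 0.12 ± 0.10 in Sir2KD2, so it settled no direction. A ratio gives no level, so the identity of the cells could not be checked from levels of beta-cell markers. Signal over background is unknown. No label says that slides of a line came from separate cultures, and p-values measure only the spread between these arrays, which may be technical.

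Of the 36 ABC transporter probes, 29 were called in no line, and the 7 called in at least 1 line make up 19.4%, against 6.4% of all probes. Calls are limma tests of the line's ratio against 0, with Benjamini-Hochberg adjusted p at or under 0.05 over 23230 probes, from a fit with a dye term for each kind. In Sir2OE1 the single call was Abcc3, on the minus side, where 1.06% of all probes were called. Sir2OE2 had 3 calls, with Abca1 and Abcc3 on the minus side and Abcg3 on the plus side, where 2.81% of all probes were called. Sir2KD1 had 5 calls, with both Abca3 probes, Abcb1a and Abcg2 on the minus side and Abcc3 on the plus side, where 3.59% of all probes were called. In Sir2KD2 the single call was Abcc3, on the plus side, where 1.34% of all probes were called. Called members made up 2.78% of the 36 probes in Sir2OE1, 8.33% in Sir2OE2, 13.9% in Sir2KD1 and 2.78% in Sir2KD2. The arrays of Sir2KD1 were the widest, with standard deviations over all probes of 0.66, 0.73 and 0.65, against 0.47 to 0.57 on the others. The fit shares 1 spread between lines, so the members' median standard error was 0.20 in Sir2KD1 and in Sir2OE1. The count in Sir2KD1 fell without slide 1 of that line, to 1 probe (Abcc3), and without slide 3, to 2 (Abcc3 and Abcg2). Without slide 2 of that line 4 were called, of which Abcc3 and the first Abca3 probe were also called with all arrays, while Abcb4 and Abcb10 were not. Leaving out an array lowers the precision for every probe. The share of all probes called in those fits is not given here, so they do not show what the excess rests on. Fitted without the overexpression arrays, Sir2KD1 and Sir2KD2 had 0 called members each by limma, among 219 and 65 probes called in all, with 9 and 5 members at an unadjusted p under 0.05. At an unadjusted p under 0.05, 8 members passed in Sir2OE1, 9 in Sir2OE2, 11 in Sir2KD1 and 6 in Sir2KD2, against 9.61%, 13.2%, 16.8% and 13.4% of all probes.

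**Figure D1:**
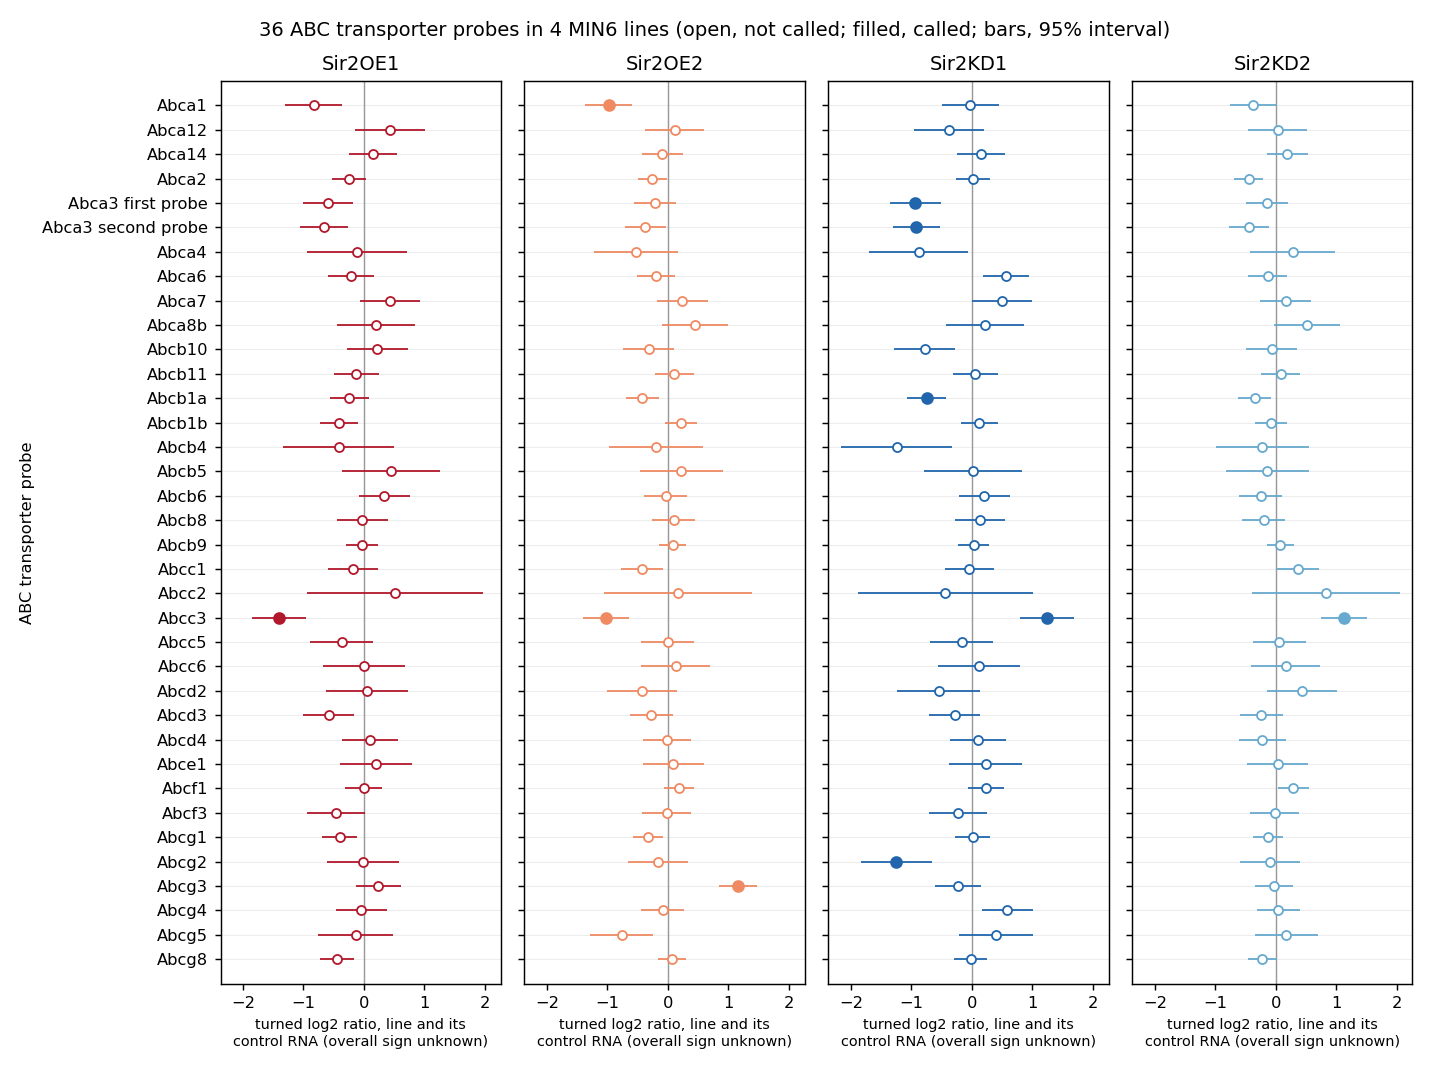
Turned log2 ratio of the 36 ABC transporter probes (rows) in Sir2OE1, Sir2OE2, Sir2KD1 and Sir2KD2 (panels), with the limma estimate as a point, its 95% interval as a bar, and a filled point where the probe was called. Abcc3 is the filled point in every panel, left of 0 for both overexpressing lines and right of it for both knockdown lines, and Abcc2 has the widest interval.

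Most members had small ratios. The median size of the log2 ratio over the 36 probes was 0.24 in Sir2OE1, 0.21 in Sir2OE2, 0.23 in Sir2KD1 and 0.18 in Sir2KD2, against 0.18, 0.17, 0.23 and 0.18 over all probes. The members' median ratio was -0.08 in Sir2OE1 and -0.06 in Sir2OE2, with 23 and 22 of 36 probes on the minus side. It was 0.01 in Sir2KD1 and -0.02 in Sir2KD2, with 17 and 19 of 36 probes on the minus side. The 95% interval lay within 1 on the log2 scale, a change under 2-fold either way, for 27, 28, 24 and 32 of the 36 probes in the order Sir2OE1, Sir2OE2, Sir2KD1 and Sir2KD2. It did so in all 4 lines for 18 probes, among them Abcc1, Abcb9, Abcf1 and Abcg1. Precision differed between members. The standard error in Sir2OE2 and in Sir2KD2 was 0.10 for Abcb9, the lowest of the 36, and 0.55 for Abcc2, the highest.

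RefSeq promoter sequences were given for 26 of the 35 genes, in 30 windows of which the 250 bases before the annotated start were used (build GRCm38.p6). The windows below belong to the members called in a single line that have 1 window each, so that the sequence around their start can be read beside their values. Capitals mark the GC box GGGCGG, the E-box CACGTG, the TATA box TATAAA and the CCAAT box CCAAT, each searched on both strands, with no overlaps between them in these windows.
Abca1, chr4:53159896-53160145, minus strand: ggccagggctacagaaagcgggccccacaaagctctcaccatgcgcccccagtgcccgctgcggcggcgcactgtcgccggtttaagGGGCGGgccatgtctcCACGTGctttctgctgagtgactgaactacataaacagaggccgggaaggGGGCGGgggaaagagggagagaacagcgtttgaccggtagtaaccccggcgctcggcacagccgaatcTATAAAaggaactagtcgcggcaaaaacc
Abca3, chr17:24351773-24352022, plus strand: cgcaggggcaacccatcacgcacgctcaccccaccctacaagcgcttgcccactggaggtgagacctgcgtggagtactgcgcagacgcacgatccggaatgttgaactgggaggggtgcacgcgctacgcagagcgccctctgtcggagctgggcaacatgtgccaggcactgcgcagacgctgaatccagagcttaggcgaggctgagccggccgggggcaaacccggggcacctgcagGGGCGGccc
Abcb1a, chr5:8566841-8567090, plus strand: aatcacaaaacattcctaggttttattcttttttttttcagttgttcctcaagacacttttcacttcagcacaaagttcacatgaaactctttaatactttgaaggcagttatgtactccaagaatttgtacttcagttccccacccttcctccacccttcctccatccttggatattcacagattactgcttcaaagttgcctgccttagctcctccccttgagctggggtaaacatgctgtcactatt
Abcg3, chr5:104982718-104982967, minus strand: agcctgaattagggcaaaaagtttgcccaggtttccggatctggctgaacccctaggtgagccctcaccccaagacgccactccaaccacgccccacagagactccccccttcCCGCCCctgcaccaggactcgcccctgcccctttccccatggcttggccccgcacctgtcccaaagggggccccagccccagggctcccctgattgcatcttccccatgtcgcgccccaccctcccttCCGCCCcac
The Abca1 window held a TATA box 29 bases before the start, an E-box and 2 GC boxes. Abca3 and Abcg3 each held a GC box 9 bases before the start, Abcg3 a second one, and Abcb1a held none of the searched motifs. GC content was 61.6% for Abca1, 67.6% for Abca3, 40.4% for Abcb1a and 66.4% for Abcg3, against a median of 52.4% over 32851 windows. A GC box was found in 13 of the 30 member windows, 43.3%, and in 32.7% of all windows. An E-box was found in 2 member windows (Abca1 and Abcf1), 6.67%, against 6.02% of all, and a TATA box in 5, 16.7%, against 12.4%. The CCAAT box was found in 8 member windows, 26.7%, against 33.9% of all. No LXR element was searched for. The core TGACNNNGC of the antioxidant response element was in 1 member window (Abcc2), 3.33%, against 10.2% of all. These letters are a description of the windows.

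Abcc3 exports bile acids and glucuronide conjugates across the basolateral membrane in liver and gut. Its turned log2 ratio was -1.60, -0.98 and -1.58 on the arrays of Sir2OE1 and -0.92, -1.11, -1.12 and -0.93 on those of Sir2OE2. In Sir2KD1 it was 0.91, 1.59 and 1.28, and in Sir2KD2 0.75, 1.70, 1.02 and 1.06. All 7 overexpression arrays lay on the minus side and all 7 knockdown arrays on the plus side, with no overlap. The fitted ratios were -1.41 ± 0.20 (SE, n = 3) for Sir2OE1 and -1.02 ± 0.17 (SE, n = 4) for Sir2OE2, with limma adjusted p of 0.00825 and 0.00849, and sizes of 2.65-fold and 2.03-fold. In the knockdown lines they were 1.24 ± 0.20 (SE, n = 3) for Sir2KD1 and 1.13 ± 0.17 (SE, n = 4) for Sir2KD2, with limma adjusted p of 0.00767 and 0.00888, and sizes of 2.37-fold and 2.19-fold. Lines of a kind shared their control RNA, so neither pair is made of independent measurements, whereas the kinds had different controls. The centring within a kind also fixes in part that arrays with opposite channels agree after the turn. Abcc3 was 1 of 29 probes called in all 4 lines and 1 of 129 with the kinds on opposite sides on all 14 arrays, which are 0.125% and 0.555% of probes.

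The difference of the kinds for Abcc3, overexpression minus knockdown, was -2.40 on the log2 scale, with a limma adjusted p of 7.02e-05. It ranked 25th by size among 23230 probes. That contrast treats arrays as replicates and assumes one channel to be on top throughout. With the other channel on top in the knockdown arrays it was -0.03 with an adjusted p of 0.967, and all 4 lines then lay on the same side. With each line's mean as 1 replicate it was -2.38, with an unadjusted p of 0.00013 and a limma adjusted p of 0.301. The call in Sir2OE1 was lost without its slide 1 or its slide 3, and the call in Sir2OE2 without its slide 1, 2 or 3, with adjusted p between 0.0574 and 0.145 in those fits. The calls in Sir2KD1 and Sir2KD2 held without each of the 14 arrays, with adjusted p up to 0.0484. They were lost when the knockdown arrays were fitted alone (adjusted p = 0.0873 and 0.135), and the call in Sir2KD2 also with the slide number as a replicate block (adjusted p = 0.0735).

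**Figure D2:**
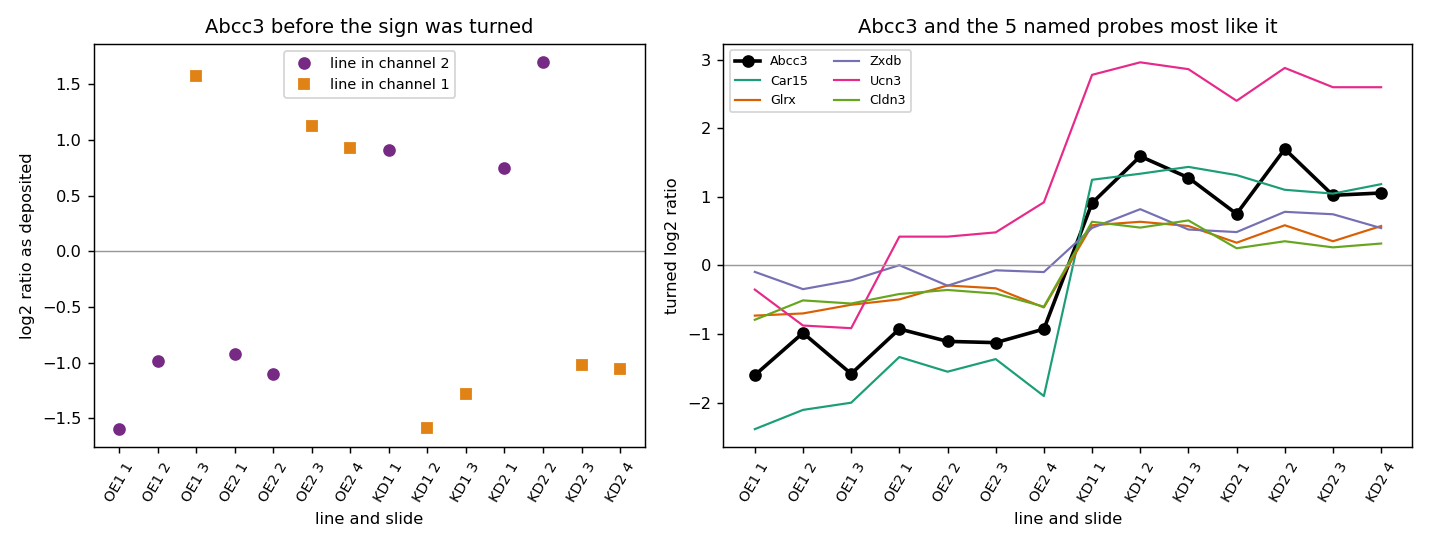
Left, the Abcc3 log2 ratio as deposited on each of the 14 arrays (x axis, line and slide). Circles mark the line in channel 2 and squares the line in channel 1. The sign follows the channel within every line, which the centring of the deposited values fixes in part. Right, the turned log2 ratio of Abcc3 (black) and of the 5 named probes most like it; Abcc3 lies between -1.60 and -0.92 on the overexpression arrays and between 0.75 and 1.70 on the knockdown arrays.

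The named probes outside the family with the highest Pearson r to Abcc3 over the 14 arrays were Car15 (0.969), Glrx (0.965), Zxdb (0.958), Ucn3 (0.955) and Cldn3 (0.953). Car15 is a carbonic anhydrase, Glrx a glutaredoxin, Ucn3 a peptide hormone of mature beta cells and Cldn3 a tight-junction claudin. The likeness is mainly the gap between the kinds, which assumes the same channel on top in both. Within the 7 overexpression arrays r with Abcc3 ran between 0.052 (Zxdb) and 0.595 (Cldn3), and within the 7 knockdown arrays between -0.034 (Car15) and 0.833 (Ucn3). Arrays of a kind share control RNA, and these values are a description. Car15 had log2 ratios of -2.16 in Sir2OE1, -1.54 in Sir2OE2, 1.34 in Sir2KD1 and 1.16 in Sir2KD2, each called. Glrx, Zxdb and Cldn3 lay on the same side as Abcc3 in each line, but Zxdb was not called in Sir2OE1 (-0.21) or Sir2OE2 (-0.11). The Ucn3 probe like Abcc3 had -0.70 in Sir2OE1 and 0.56 in Sir2OE2, neither called, and in Sir2OE2 its side was opposite to that of Abcc3. The other Ucn3 probe had r = -0.667 with Abcc3, so the likeness of Ucn3 held for 1 of its 2 probes.

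Of the transporters known for lipids, Abca1, which loads cholesterol and phospholipid onto apolipoprotein A-I, was called in Sir2OE2. Its turned log2 ratio was -1.07, -0.32 and -1.03 on the arrays of Sir2OE1, -1.07, -0.87, -0.85 and -1.13 in Sir2OE2, 0.02, 0.47 and -0.50 in Sir2KD1, and -0.60, -0.40, -0.52 and 0.04 in Sir2KD2. All 7 overexpression arrays lay on the minus side, and the knockdown arrays lay on both sides. The fitted ratio was -0.98 ± 0.18 (SE, n = 4) in Sir2OE2, 1.97-fold in size, with a limma adjusted p of 0.0133. It was -0.83 ± 0.21 (SE, n = 3) in Sir2OE1, which missed the threshold at an adjusted p of 0.125. Ratios were -0.02 in Sir2KD1 and -0.37 in Sir2KD2, neither called. The call in Sir2OE2 was lost without any 1 of its 4 slides, with adjusted p between 0.0516 and 0.102. The difference of the kinds was -0.71, with an adjusted p of 0.100.

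Abcg1, which passes cholesterol to lipoprotein particles, lay on the minus side on all 7 overexpression arrays as well. Its log2 ratios were -0.41, -0.42 and -0.38 in Sir2OE1 and -0.13, -0.53, -0.45 and -0.23 in Sir2OE2. On the knockdown arrays they were -0.07, 0.31 and -0.17 in Sir2KD1 and -0.10, -0.21, -0.19 and -0.02 in Sir2KD2. The kinds thus overlapped, and all knockdown arrays but the one at 0.31 were on the minus side too. The fitted ratios of Abcg1 were -0.40 and -0.33 in the overexpressing lines (limma adjusted p = 0.284 and 0.196) and 0.01 and -0.13 in Sir2KD1 and Sir2KD2, none called. Abca2, an endolysosomal lipid transporter, had ratios of -0.24 in Sir2OE1, -0.26 in Sir2OE2, 0.01 in Sir2KD1 and -0.45 in Sir2KD2, with a lowest adjusted p of 0.0782 in Sir2KD2. Abcg5 and Abcg8, whose proteins pair to export sterols in liver and gut, are neighbours on chromosome 17 and their promoter windows overlap by 109 bases on opposite strands. Abcg5 had ratios of -0.14, -0.76, 0.40 and 0.17, and Abcg8 of -0.44, 0.07, -0.02 and -0.22, in the order Sir2OE1, Sir2OE2, Sir2KD1 and Sir2KD2. None of these was called, and the pair had r = -0.174 over the 14 arrays. Abcg4, a sterol exporter of neurons, had ratios of -0.05, -0.09, 0.59 and 0.04 in the same order, also without a call.

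In all, 8 member probes lay on 1 side on all 7 overexpression arrays, and each was on the minus side. They were Abca1, Abca2, both Abca3 probes, Abcb1a, Abcc3, Abcg1 and Abcg5. That is 22.2% of the 36, against 8.60% of all probes on 1 side and 4.27% on the minus side. On the 7 knockdown arrays 3 member probes lay on 1 side (the second Abca3 probe, Abcb1a and Abcc3), which is 8.33%, against 9.32% of all probes. Arrays of a kind shared the control RNA, so the 7 arrays are not independent, and a shift of the control cannot be told apart from one of the lines. The centring, a sum of 0 over 6 arrays with 3 in each channel, also makes the turned sums of both channels equal. Agreement between opposite channels is therefore in part fixed by it, for members and for all probes.

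Abca3, which fills lung lamellar bodies with surfactant lipid, was called by both of its probes in Sir2KD1. The first probe had log2 ratios of -1.12, -0.66 and -0.98 there, and the second -0.87, -1.05 and -0.85. The fits were -0.93 ± 0.19 (SE, n = 3) and -0.92 ± 0.18 (SE, n = 3), with limma adjusted p of 0.0226 and 0.0187 and sizes of 1.91-fold and 1.89-fold. In Sir2KD2 the first probe had -0.14 and the second -0.45, in Sir2OE1 -0.59 and -0.66, and in Sir2OE2 -0.22 and -0.37, none called. Both probes thus had negative ratios in all 4 lines. Over single arrays they shared little, with r = 0.145. The call of the first probe was lost without slide 1 or 3 of Sir2KD1 and that of the second without slide 1, 2 or 3, with adjusted p between 0.0608 and 0.212. Both calls were also lost with the arrays scaled to a common spread (adjusted p = 0.0584 and 0.0624) and with the slide number as a replicate block (adjusted p = 0.0804 and 0.0721). Abca7, a phospholipid transporter linked to phagocytosis, had ratios of 0.43 in Sir2OE1, 0.24 in Sir2OE2, 0.50 in Sir2KD1 and 0.16 in Sir2KD2, and Abcb4, which flips phosphatidylcholine into bile, had -0.41, -0.20, -1.24 and -0.22. Neither was called. Abcb4 in Sir2KD1 held -1.20, 0.24 and -2.56 on its arrays, with a limma adjusted p of 0.148. Its interval there, from -2.16 to -0.33, uses a spread shared by all lines and so understates the scatter of these arrays. The standard error was 0.41 in Sir2KD1 and in Sir2OE1, where the arrays had standard deviations of 1.40 and 0.33.

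**Figure D3:**
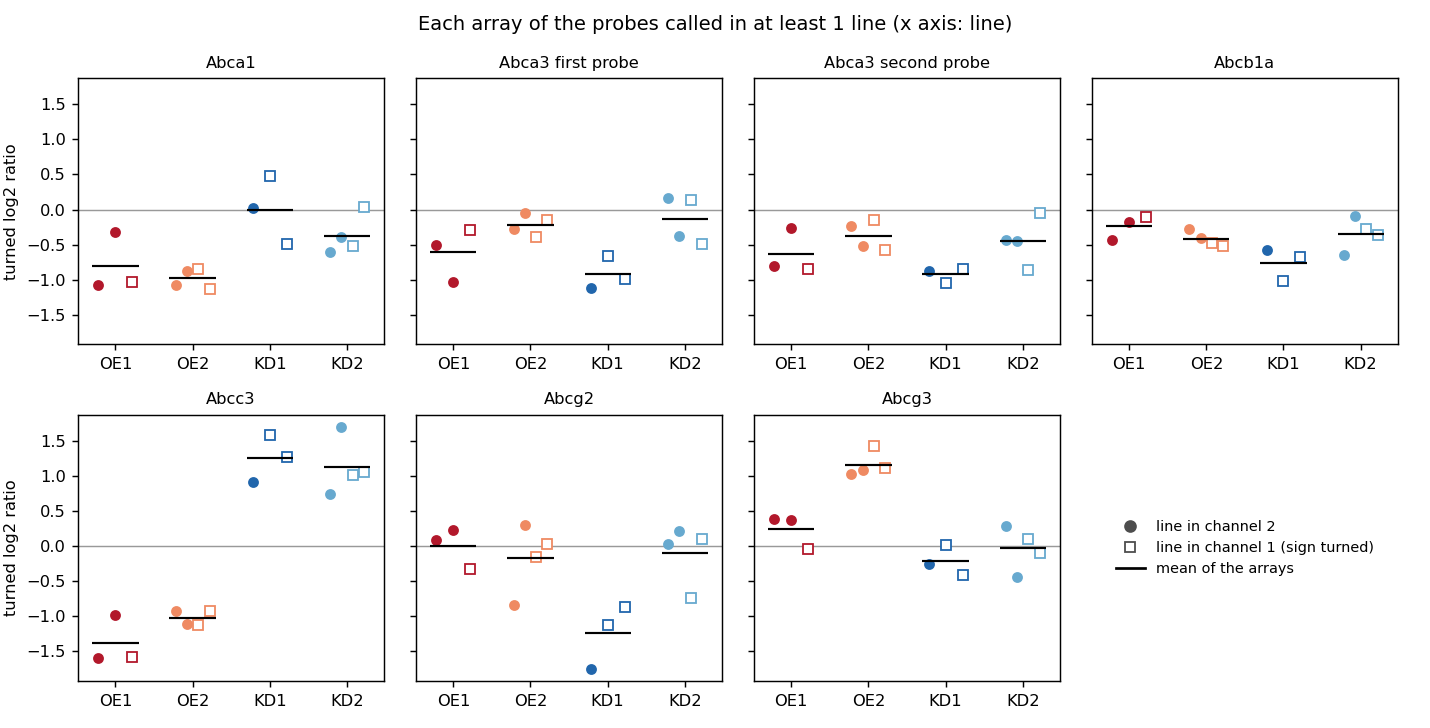
Turned log2 ratio on each array (points) of the 7 ABC transporter probes called in at least 1 line, by line (x axis: OE1, OE2, KD1 and KD2 for Sir2OE1, Sir2OE2, Sir2KD1 and Sir2KD2); filled circles are arrays with the line in channel 2, open squares arrays with the line in channel 1, and bars the mean of the arrays. Abcc3 alone shows the kinds apart, Abcg3 stands above the other lines in Sir2OE2, and the mean of Abcg2 is lowest in Sir2KD1.

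Abcb1a and Abcb1b are the mouse P-glycoproteins, exporters of drugs with broad specificity. Abcb1a lay on the minus side on all 14 arrays. Its log2 ratio was -0.43, -0.17 and -0.11 in Sir2OE1, -0.28, -0.41, -0.48 and -0.52 in Sir2OE2, -0.57, -1.02 and -0.68 in Sir2KD1, and -0.65, -0.10, -0.27 and -0.36 in Sir2KD2. It and the second Abca3 probe were 2 of 249 probes, 1.07% of all, on the same side on all 14 arrays. Abcb1a was called in Sir2KD1 alone, at -0.75 ± 0.14 (SE, n = 3), 1.68-fold in size, with a limma adjusted p of 0.0187. The call was lost without slide 1, 2 or 3 of that line, with adjusted p between 0.0541 and 0.0974. In Sir2OE2 its ratio was -0.42 with an adjusted p of 0.122, and it was called there only with the arrays scaled to a common spread. Abcb1b, its neighbour on chromosome 5, had ratios of -0.41 in Sir2OE1, 0.22 in Sir2OE2, 0.13 in Sir2KD1 and -0.09 in Sir2KD2, none called. The 2 P-glycoprotein genes had r = -0.17 over the 14 arrays, and Abcb1a and Abcb4, also close by, had r = 0.332.

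Abcg2 exports drugs, urate and porphyrins. Its log2 ratio was -1.75, -1.12 and -0.86 on the arrays of Sir2KD1, against -0.84 to 0.31 on the other 11 arrays. The highest value of Sir2KD1 thus lay close to the lowest of the rest. The fit gave -1.25 ± 0.27 (SE, n = 3) in Sir2KD1, 2.38-fold in size, with a limma adjusted p of 0.0296. The other ratios were -0.01 in Sir2OE1, -0.17 in Sir2OE2 and -0.10 in Sir2KD2. The difference of the knockdown lines, Sir2KD2 minus Sir2KD1, was 1.15 ± 0.35 (SE) and did not pass, at an adjusted p of 0.202. The call was lost without slide 1 or slide 2 of Sir2KD1, with adjusted p of 0.343 and 0.0835. Without slide 1 the ratio was -0.77. The call was also lost with the arrays scaled to a common spread (adjusted p = 0.0994).

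Abcg3, a mouse relative of Abcg2, was the member called on the plus side in an overexpressing line. Its log2 ratio was 0.39, 0.38 and -0.03 in Sir2OE1 and 1.02, 1.09, 1.43 and 1.11 in Sir2OE2. It was -0.25, 0.02 and -0.41 in Sir2KD1 and 0.29, -0.43, 0.11 and -0.09 in Sir2KD2. The 4 arrays of Sir2OE2 lay above the other 10 without overlap, and how many of all probes have a line apart like this was not counted. The fit gave 1.16 ± 0.14 (SE, n = 4) in Sir2OE2, 2.24-fold in size, with a limma adjusted p of 0.00131, and this call held without each of the 14 arrays. Abcg3 was at 0.24 in Sir2OE1, -0.23 in Sir2KD1 and -0.03 in Sir2KD2. The difference of the overexpressing lines, Sir2OE2 minus Sir2OE1, was 0.93 ± 0.22 (SE) and did not pass, at an adjusted p of 0.174, although it passed in a fit without dye terms. The difference of the kinds was 0.83, with an adjusted p of 0.0189, and was lost without slide 2 of Sir2OE1, slide 3 of Sir2OE2 or slide 1 of Sir2KD1 (adjusted p between 0.053 and 0.0643). With the other channel on top in the knockdown arrays it was 0.57 with an adjusted p of 0.0694, and with each line's mean as 1 replicate it was 0.80, with an unadjusted p of 0.0828 and an adjusted p of 0.656.

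The other transporters of conjugates, drugs and bile salts were not called in any line. Abcc1, which exports glutathione conjugates and leukotrienes, had ratios of -0.18 in Sir2OE1, -0.43 in Sir2OE2, -0.04 in Sir2KD1 and 0.36 in Sir2KD2. Abcc2, its apical counterpart in liver, had 0.52, 0.16, -0.44 and 0.82 in the same order. The Abcc2 value in Sir2KD2 rests on arrays of 0.57, 0.66, 3.38 and -1.32, and its interval ran from -0.40 to 2.05. Abcc5, which exports cyclic nucleotides and other organic anions, had -0.36, -0.01, -0.17 and 0.06. Abcc6, a liver protein needed to prevent ectopic mineralisation, had 0.01, 0.13, 0.12 and 0.16. Abcb11, the bile salt export pump, had -0.12, 0.11, 0.06 and 0.08. Over the 10 probes of this role, Abcc3 included, 7 of 40 ratios were called, 17.5%, against 2.2% over all probes and the 4 lines, and 4 of the 7 are Abcc3. The lowest adjusted p among the rest was 0.122 (Abcb1a in Sir2OE2). Over the 10 probes of the lipid transporters, 3 of 40 ratios were called, 7.5%, and 2 of the 3 are the Abca3 probes in Sir2KD1. The role groups were chosen with earlier results of these data known, and Abcg3 was placed with the drug transporters as a relative of Abcg2. Each probe is counted once per line, and lines of a kind share their control. These shares are therefore a description of the groups and no test of them.

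The peroxisomal and lysosomal members of subfamily D, and the mitochondrial and lysosomal members of subfamily B, were not called in any line. Among the peroxisomal importers of fatty acyl chains, Abcd3 had ratios of -0.58 in Sir2OE1, -0.27 in Sir2OE2, -0.29 in Sir2KD1 and -0.24 in Sir2KD2, and Abcd2 had 0.05, -0.43, -0.55 and 0.43. Abcd4, which releases cobalamin from lysosomes, had 0.10, -0.02, 0.11 and -0.22. The lowest adjusted p over these 12 ratios was 0.284 (Abcd3 in Sir2OE1). Abcb6, tied to porphyrin transport, had 0.33, -0.04, 0.21 and -0.25. Abcb8 and Abcb10 sit in the inner mitochondrial membrane, with Abcb8 at -0.02, 0.10, 0.13 and -0.20 and Abcb10 at 0.22, -0.32, -0.78 and -0.07. Abcb9, a lysosomal peptide transporter, had -0.03, 0.08, 0.03 and 0.07, and its 95% intervals reached at most from -0.295 to 0.301. The lowest adjusted p over the 16 ratios of these subfamily B members was 0.102 (Abcb10 in Sir2KD1).

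Members of subfamilies E and F bind ATP but span no membrane and act on ribosomes. Abce1, which splits ribosomes for recycling, had ratios of 0.20 in Sir2OE1, 0.09 in Sir2OE2, 0.23 in Sir2KD1 and 0.03 in Sir2KD2. Abcf1 had -0.01, 0.18, 0.23 and 0.29, and Abcf3 had -0.46, -0.02, -0.24 and -0.02. None was called, and the lowest adjusted p over the 12 ratios was 0.292 (Abcf1 in Sir2KD2). The remaining 6 probes, Abca4 of the retina, Abca12 of the skin, and Abca6, Abca8b, Abca14 and Abcb5, ran from -0.88 (Abca4 in Sir2KD1) to 0.57 (Abca6 in Sir2KD1). None of those 24 ratios was called, and the lowest adjusted p was 0.109 (Abca6 in Sir2KD1).

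Lines of a kind were compared directly, since their shared control drops out of the difference. No member passed for Sir2OE2 minus Sir2OE1, where 0.323% of all probes were called, or for Sir2KD2 minus Sir2KD1, where 0.689% were called, in limma tests. At an unadjusted p under 0.05 there were 3 members in the difference of the overexpressing lines (Abcb1b, Abcg3 and Abcg8) and 7 in that of the knockdown lines (Abca2, the first Abca3 probe, Abca4, Abca6, Abcb10, Abcd2 and Abcg2), against 7.48% and 11.8% of all probes. A member called in 1 line of a kind was therefore not shown to differ from the other line. In the difference of the kinds, overexpression minus knockdown, 2 members passed (Abcc3 and Abcg3), 5.56% of the 36, where 2.66% of all probes were called.

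**Figure D4:**
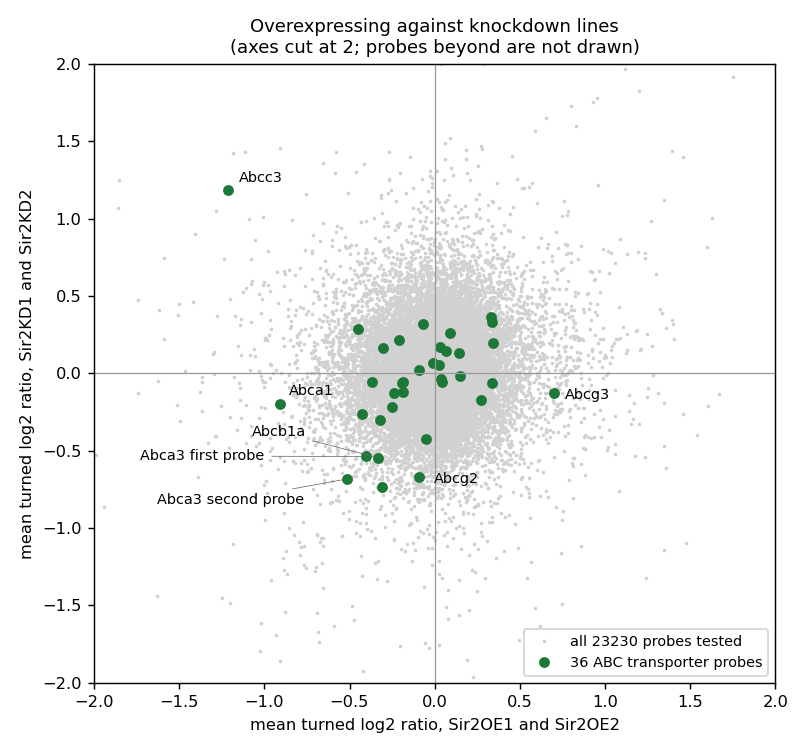
Mean turned log2 ratio of Sir2OE1 and Sir2OE2 (x axis) against that of Sir2KD1 and Sir2KD2 (y axis), for the 36 ABC transporter probes (green) and all 23230 probes tested (grey, of which 41 lie beyond the axes). Abcc3 is the member furthest into the upper left. Abca1 lies to the left and Abcg3 to the right near the middle of the y axis, and both Abca3 probes and Abcb1a lie in the lower left.

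Genes that work with these transporters were counted from lists by role, with every call named, where 1.06% to 3.59% of all probes were called in a line. Of 17 probes for sterol efflux partners, among them Nr1h3 (LXR alpha), Rxra and Apoe, none was called in any line by limma, and at most 3 passed an unadjusted p under 0.05 (in Sir2KD1). Nr1h3 had ratios of 0.24 in Sir2OE1, -0.24 in Sir2OE2, -0.18 in Sir2KD1 and -0.22 in Sir2KD2. Of 24 probes for drug and conjugate handling, 1 was called, Mgst3, a membrane-bound glutathione transferase. It was at -0.99 in Sir2OE1, -0.58 in Sir2OE2, -0.09 in Sir2KD1 and 0.64 in Sir2KD2, and all but Sir2KD1 were called (limma adjusted p = 0.00839, 0.0277 and 0.0313). Of 18 probes for peroxisome partners, Scp2, a sterol carrier and thiolase, was called at -0.67 in Sir2OE1 and -0.69 in Sir2OE2, and Pex7, a peroxisomal import receptor, at -0.80 in Sir2OE2. None of 16 probes for heme and iron-sulfur synthesis, 13 for ribosome recycling and translation, or 5 for family proteins under other symbols (Tap1, Tap2, Cftr, Abcc8 and Abcc9) was called, with at most 2, 3 and 1 probes of these lists at an unadjusted p under 0.05 in a line. Abcc8, the sulfonylurea receptor of beta cells, had ratios of -0.19, -0.21, 0.34 and -0.38 in the order Sir2OE1, Sir2OE2, Sir2KD1 and Sir2KD2.

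Some markers of cell types were also called. Of 10 probes for beta-cell genes, 2 were called in Sir2OE1, 3 in Sir2OE2, 4 in Sir2KD1 and 3 in Sir2KD2. The shares of all probes called in these lines were 1.06%, 2.81%, 3.59% and 1.34%. The Ins2, Iapp and G6pc2 probes of this list, and Gcg among other islet cells, are of those that share a fixed ratio, and none was called. The glucose transporter gene Slc2a2 was called on the minus side in each line (-0.90, -1.50, -2.08 and -0.89 in the order Sir2OE1, Sir2OE2, Sir2KD1 and Sir2KD2). The prohormone convertase gene Pcsk1 was on the plus side in each line (0.78, 0.78, 0.44 and 0.76 in the same order), called in all but Sir2KD1. The transcription factor genes Neurod1 (-0.50 in Sir2OE2 and -0.47 in Sir2KD1) and Pdx1 (-0.77 in Sir2KD1) were called on the minus side, and 1 Ucn3 probe was called on the plus side in Sir2KD1 and Sir2KD2 (2.86 and 2.62). Of 7 probes for exocrine and duct genes, 2 were called in Sir2OE1, 2 in Sir2OE2, 3 in Sir2KD1 and 1 in Sir2KD2. The epithelial marker Epcam had -2.74, -1.15, -2.18 and 0.45, called in all but Sir2KD2. The keratin gene Krt19 was called on the minus side in Sir2OE1 and Sir2OE2 (-0.58 and -0.69), the trypsinogen gene Prss1 on the minus side in Sir2KD1 (-0.75), and the keratin gene Krt7 was called on the plus side in Sir2KD1 and Sir2KD2 (0.93 and 1.29). None of 4 probes for other islet cells, 7 for mesenchymal and endothelial cells or 5 for immune cells was called, with at most 2 probes of each list at an unadjusted p under 0.05 in a line. These values stand beside the calls of Abca3, Abcb1a, Abcc3 and Abcg2, and their part in those calls was not tested.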

How the data were processed

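RNA of 4 modified MIN6 lines was measured on 14 two-colour arrays. The deposited values are log2 channel ratios that the authors centred probe by probe, as the values themselves show: within a kind they summed to 0 over 6 of 7 arrays (largest deviation 5.6e-08), and undoing this gave whole-number percents for 99.987% and 99.97% of complete probes (relative tolerance 1e-05). No source used here gives the array software, background correction, normalization or ratio direction. Of 23232 probes, 16885 had 1 symbol in the platform annotation, 143 had several and 6204 were not listed, and 16205 symbols were updated through Entrez identifiers. No member was among the 329 and 173 probes that share a fixed ratio, while the Ins2, Iapp, G6pc2, Gcg and Gstp1 probes of the gene lists were.

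The 23230 probes present on at least 2 arrays per line entered limma (version 3.58.1, R 4.3.3; lmFit, then eBayes) as turned ratios, with a coefficient per line and a dye term per kind, leaving 8 residual degrees of freedom. Fitted ratios can differ slightly from array means because of the dye terms. Testing a line's ratio against 0 does not count how much the controls vary. Tests were run on simulated data first. The members, role groups and gene lists were chosen with earlier results of these data known. Every array value is given for members called in at least 2 lines or in a line and a contrast, and for other called members where they carry a result; line values are given for members with a known role. The number of arrays limits the precision.

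Alternatives were other dye terms, the slide number as a block, array centring and scaling, probe filters, robust variance, each kind alone, no turn, averaged probes, the other channel on top in the knockdown arrays, lines as replicates, and leaving out each array. Slide numbers did not pair arrays: deviations of arrays of the same number had a mean r of -0.214 over 6 pairs of the same kind (-0.377 to 0.074) and of -0.002 over 13 pairs of different kinds. After the turn, arrays of a line with opposite channels had a mean r of 0.281 over 12 pairs, and arrays with the same channels 0.126 over 6 pairs. Among centred arrays, the sum of 0 raises r between opposite channels after the turn and lowers it between the same channels. These correlations therefore do not test the turn.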

Additional observations from a re-analysis of the deposited data

Results flagged for a closer look

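Within Sir2OE2, the line values of 4 members each held 1 array far from the other 3. Abca6 had 0.14 on slide 1, against -0.35 to -0.28 on the others. Abca8b had -0.37 on slide 4, against 0.72 to 0.75. Abcb1b had -0.0417 on slide 4, against 0.28 to 0.33. Abcd3 had 0.19 on slide 1, against -0.47 to -0.38. In all, 72 groups of 4 arrays were examined (36 probes in 2 lines), and chance alone gives about 1 in 20. None of these 4 members was called in Sir2OE2.

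The limma test of the difference, overexpression minus knockdown, passed for 2 members with arrays counted as replicates. For Abcc3 the difference was -2.40 and for Abcg3 0.83 on the log2 scale, both resting on the same channel on top in the 2 kinds. With each line's mean as 1 replicate neither passed, at limma adjusted p of 0.301 for Abcc3 and 0.656 for Abcg3.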

How the results depend on the processing

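The turn of the array signs carries most of the results. With no array turned, 0 members were called in each of the 4 lines and in the difference of the kinds, among 0, 0, 12, 0 and 0 probes in all, with 0, 0, 1, 0 and 0 members at an unadjusted p under 0.05. Deposited values sum to 0 over 6 arrays of a kind, so unturned ratios are near 0 by construction. Abcc3 then had 0.0611 in Sir2OE1, 0.0049 in Sir2OE2, -0.27 in Sir2KD1 and 0.12 in the difference of the kinds. Abca1 had 0.0096 and Abcg3 -0.11 in Sir2OE2, Abcg3 -0.0331 in the difference of the kinds, and in Sir2KD1 the Abca3 probes had 0.0162 and 0.131 and Abcb1a 0.21. Signal over background is unknown, so dim probes could not be told from bright ones.

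Counts of called members changed as follows, with causes not tested. Most are given without the share of all probes called in the same fit, so they describe the fits and are no result about the members. Without dye terms there were 3 in Sir2OE1 (Abca1, Abcc3 and Abcg8), 2 in Sir2KD2 (Abca2 and Abcc3) and 1 in Sir2OE2 minus Sir2OE1 (Abcg3). With 1 dye term for both kinds there were 2 in Sir2KD2. With the slide number as a replicate block there were 3 in Sir2KD1 (Abcb1a, Abcc3 and Abcg2) and 0 in Sir2KD2 (7 at an unadjusted p under 0.05). With arrays scaled to a common spread there were 2 in Sir2KD1 (Abcb1a and Abcc3). With each kind fitted alone there were 0 in Sir2KD1 and 0 in Sir2KD2. With probes of a gene averaged there were 2 in Sir2OE1 (Abca3 and Abcc3). In the difference of the kinds there were 5 with the other channel on top in the knockdown arrays (Abca1, Abca2, both Abca3 probes and Abcb1a) and 0 with lines as replicates, where 0 of all probes passed, 1822 at an unadjusted p under 0.05. Leaving out each array in turn gave 0 to 1 in Sir2OE1, 1 to 3 in Sir2OE2, 1 to 5 in Sir2KD1 and 1 to 3 in the difference of the kinds. Median centring, the probe filters and robust variance kept every count within 1.5 times.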
